A study of Homo sapiens with 2 samples.

Results

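The genes of the heat shock proteins and of their DNAJ cochaperones were examined for promoter peaks of PRMT6 and PARP1 in the cell line MDA-MB-231, which was derived from a triple-negative breast cancer. Members were defined by gene symbol and not by peaks, but the rule was set with earlier results of these data known. They are the protein-coding RefSeq genes of the HSPA, HSPB, HSP90A, HSP90B, DNAJA, DNAJB and DNAJC series together with HSPD1, HSPE1, HSPH1, HSF1 and HSF2. This rule gave 76 genes out of 19719 with a known strand. It also takes in HSPBAP1 and HSPBP1, which encode proteins that bind heat shock proteins and do not belong to the HSPB family. The study profiled cells under ordinary culture, with no treatment or genetic change named, in 2 libraries from Cell Signaling Technology antibodies. One antibody was against PRMT6, an arginine methyltransferase, and the other against PARP1, which adds ADP-ribose to proteins. The labels name a CUT&Tag kit, in which a transposase cuts next to the antibody, but also describe a ligation-based ChIP library, so the chemistry is uncertain. With 1 library per antibody there is no replicate check, so no p-value is given and every value describes these libraries.

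Heat shock proteins are chaperones that bind unfolded proteins and help them to fold. HSPA proteins bind and release their clients in a cycle driven by ATP, DNAJ proteins deliver clients and start ATP hydrolysis, and HSP90 proteins act on clients at a later stage. Small heat shock proteins (HSPB) hold unfolded proteins without using ATP, and HSPD1 and HSPE1 form the folding chamber of mitochondria. Under heat or other stress, the transcription factor HSF1 binds heat shock elements, arrays of the unit GAA and its reverse complement, and raises the transcription of many of these genes. Stress in the endoplasmic reticulum (ER) acts instead through other elements, among them the ER stress response element.

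The PRMT6 list holds 9080 peaks and the PARP1 list 11651. Read depth is not part of the lists. Each peak has a score, read here from its range as the −log10 of a p-value or q-value of the peak caller, which depends on depth. Scores are therefore compared by rank, with rank 1 the best, or by percentile within their own list. A promoter is taken here as the window that reaches 3 kb upstream and 3 kb downstream of where the gene record begins, and any base of a peak inside it counts. Intervals are 95% exact binomial (Clopper-Pearson) intervals and cover counting error only. Positions are in the GRCh38 build.

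Of the 76 members, 27 had a PRMT6 promoter peak, a share of 35.5% (24.9% to 47.3%). Among all protein-coding genes the share was 18.3%. A PARP1 promoter peak was found at 33 members (43.4%, 32.1% to 55.3%), against 22.5% of all genes. Both lists had a peak at 23 members (30.3%, 20.2% to 41.9%), against 13.4% of all genes. PRMT6 alone marked 4 members, PARP1 alone marked 10, and 39 were marked by neither list. The member shares lay above the shares of all genes, and the lower interval bounds did too. Members of a family are not independent of each other, and 3 pairs (HSPD1 and HSPE1, HSPA1L and HSPA1A, DNAJC25 and the readthrough gene DNAJC25-GNG10) share a promoter or a 5′ end. With each pair counted once, 21 of 73 members (28.8%) had peaks of both lists.

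**Figure D1:**
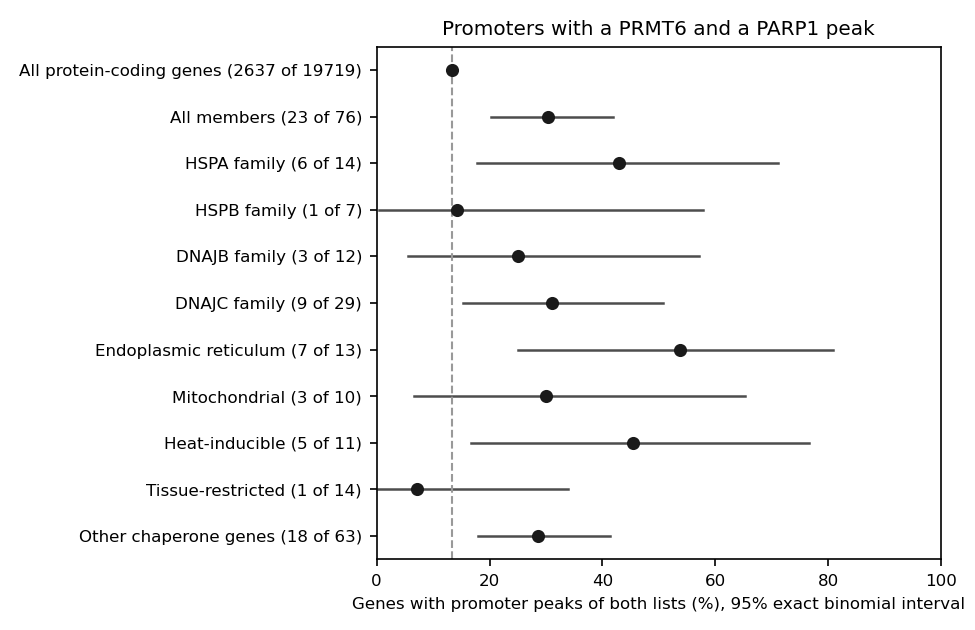
Share of genes with a promoter peak in both lists (x axis, percent), with 95% exact binomial intervals as lines and the counts beside each name. The dashed line marks the 13.4% of all protein-coding genes. ER genes (7 of 13) and HSPA genes (6 of 14) stand to the right of the line, and tissue-restricted genes (1 of 14) to the left with an interval that spans it.

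Counts differed between the families, with intervals that overlap. In the HSPA family 6 of 14 genes had peaks of both lists (42.9%, 17.7% to 71.1%), in the HSP90 group 2 of 3, in the DNAJC family 9 of 29 (31%, 15.3% to 50.8%) and in the DNAJB family 3 of 12 (25%, 5.49% to 57.2%). HSPD1 and HSPE1 both had them. The HSPB family had 1 of 7, and the DNAJA family, HSPH1 and the 2 heat shock factors had none.

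By the starts of the gene records, the best-ranked promoter peaks of the members lay at HSPA1B and HSPA8. HSPA8 encodes the chaperone that most cells make at all times. Its PRMT6 peak (chromosome 11, 123062118 to 123062685) ranked 69 with a score of 25.49, and its PARP1 peak (123062174 to 123062688) ranked 267 with a score of 19.91. Both peaks spanned the 5′ end, and their centres lay 30 bp apart. HSPA1B encodes the main stress-induced chaperone of the family. Its PRMT6 peak (chromosome 6, 31827176 to 31827788) ranked 46 with a score of 27.36, and its PARP1 peak (31827240 to 31827874) ranked 477 with a score of 16.64. Both genes thus ranked higher in the PRMT6 list, in which they stood at percentiles 99.2 and 99.5.

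HSPA1A encodes the same stress-induced protein as HSPA1B from a start 12195 bp away, but its promoter window held no peak. The nearest PRMT6 peak lay 8484 bp upstream of its 5′ end and the nearest PARP1 peak 11697 bp downstream. The promoter windows of the 2 genes, 250 bases before to 50 after the start, were 92.0% identical over 301 aligned positions. How the aligner placed reads that match both copies is not given in the sources used here, so the assignment of the signal to HSPA1B is uncertain, and its effect was not tested. The 250 bases before the start of HSPA1B (chr6:31827488-31827737) and of HSPA1A (chr6:31815293-31815542) are shown because the copies differ in peaks but little in sequence. They are RefSeq sequences (GRCh38.p14, plus strand), read 5′ to 3′. Capitals mark the GAA and TTC units of each pair that matches GAANNTTC or TTCNNGAA, which stand for a short heat shock element.
HSPA1B: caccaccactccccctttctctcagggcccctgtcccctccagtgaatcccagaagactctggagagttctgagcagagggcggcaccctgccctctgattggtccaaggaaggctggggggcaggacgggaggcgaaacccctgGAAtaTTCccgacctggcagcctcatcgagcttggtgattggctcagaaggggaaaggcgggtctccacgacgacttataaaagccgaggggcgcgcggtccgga
HSPA1A: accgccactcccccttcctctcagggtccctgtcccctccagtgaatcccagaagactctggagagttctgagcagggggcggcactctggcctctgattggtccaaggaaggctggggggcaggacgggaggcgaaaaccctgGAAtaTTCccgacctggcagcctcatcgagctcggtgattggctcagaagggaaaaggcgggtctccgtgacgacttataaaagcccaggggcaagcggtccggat

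The other HSPA genes ranked lower. HSPA9, the chaperone of the mitochondrial matrix, had peaks of rank 1588 (PRMT6) and 2728 (PARP1) that overlapped upstream of and at the 5′ end. HSPA13, an ER-associated member, ranked 2418 and 1524, and HSPA14, which works at ribosomes, ranked 2674 and 4164. HSPA5, the main chaperone of the ER, had a peak in each list without overlap. Its PRMT6 peak (chromosome 9, 125241401 to 125241696, rank 2991) lay 58 bp upstream of the 5′ end, while its PARP1 peak (125243209 to 125243482, rank 6102) lay 1866 bp upstream. HSPA4, a nucleotide exchange factor of the family, had only a weak PARP1 peak (rank 9441, percentile 19.0). HSPA6, strictly stress-induced in most cells, had only a PRMT6 peak of the smallest width in the list, 288 bp, which ranked 8745 of 9080. The gene has a close pseudogene copy, HSPA7, so its reads are also uncertain. HSPA1L, HSPA2, HSPA4L, HSPA12A and HSPA12B had no peak in the window.

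Of the HSP90 genes, HSP90AA1 and HSP90B1 had peaks of both lists. HSP90B1, the ER member, ranked 3592 (PRMT6, chromosome 12, 103930195 to 103930482) and 3985 (PARP1, 103929997 to 103930276). HSP90AA1, the stress-responsive cytosolic member, had a PRMT6 peak of rank 439 (chromosome 14, 102139515 to 102140020) and a PARP1 peak of rank 6116 (102139689 to 102139901). Its percentiles of 95.2 and 47.3 made up the widest gap between the lists among the members. The 5′ end of WDR20 lies 326 bp away. HSP90AB1, the constitutive cytosolic member, had no peak of either list closer than 8345 bp (PRMT6) and 8419 bp (PARP1). HSPH1, which recycles nucleotide on HSPA proteins, had a PARP1 peak across its 5′ end (chromosome 13, 31162114 to 31162481, rank 1295), the best-scoring one among members marked by PARP1 alone. The nearest PRMT6 peak lay 343309 bp away.

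HSPD1 and HSPE1 point away from each other, with 5′ ends 105 bp apart, and share 1 peak of each list. The PRMT6 peak (chromosome 2, 197499934 to 197500433) ranked 1046 and the PARP1 peak (197499906 to 197500453) ranked 503. Their centres were 4 bp apart, and both peaks spanned both 5′ ends.

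In the HSPB family 1 of 7 genes had peaks of both lists (14.3%, 0.361% to 57.9%), a share close to the 13.4% of all genes. This gene was HSPB6 (rank 1194 for PRMT6 and 1959 for PARP1), whose peak centres lay 948 and 1012 bp upstream of its 5′ end, nearest to PROSER3. HSPB1, the most widely made member, had its nearest PRMT6 peak 56423 bp and its nearest PARP1 peak 11709 bp away. HSPB2, HSPB3, HSPB7, HSPB8 and HSPB9 had none in the window. Of the heat shock factors, HSF2 had a PARP1 peak of the smallest width (200 bp, rank 6512) that ended 20 bp upstream of its 5′ end. HSF1 had none, with the nearest peaks 35059 bp (PRMT6) and 131968 bp (PARP1) away. HSPBP1, a nucleotide exchange factor, had a PRMT6 peak of rank 5621, and HSPBAP1 had none.

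**Figure D2:**
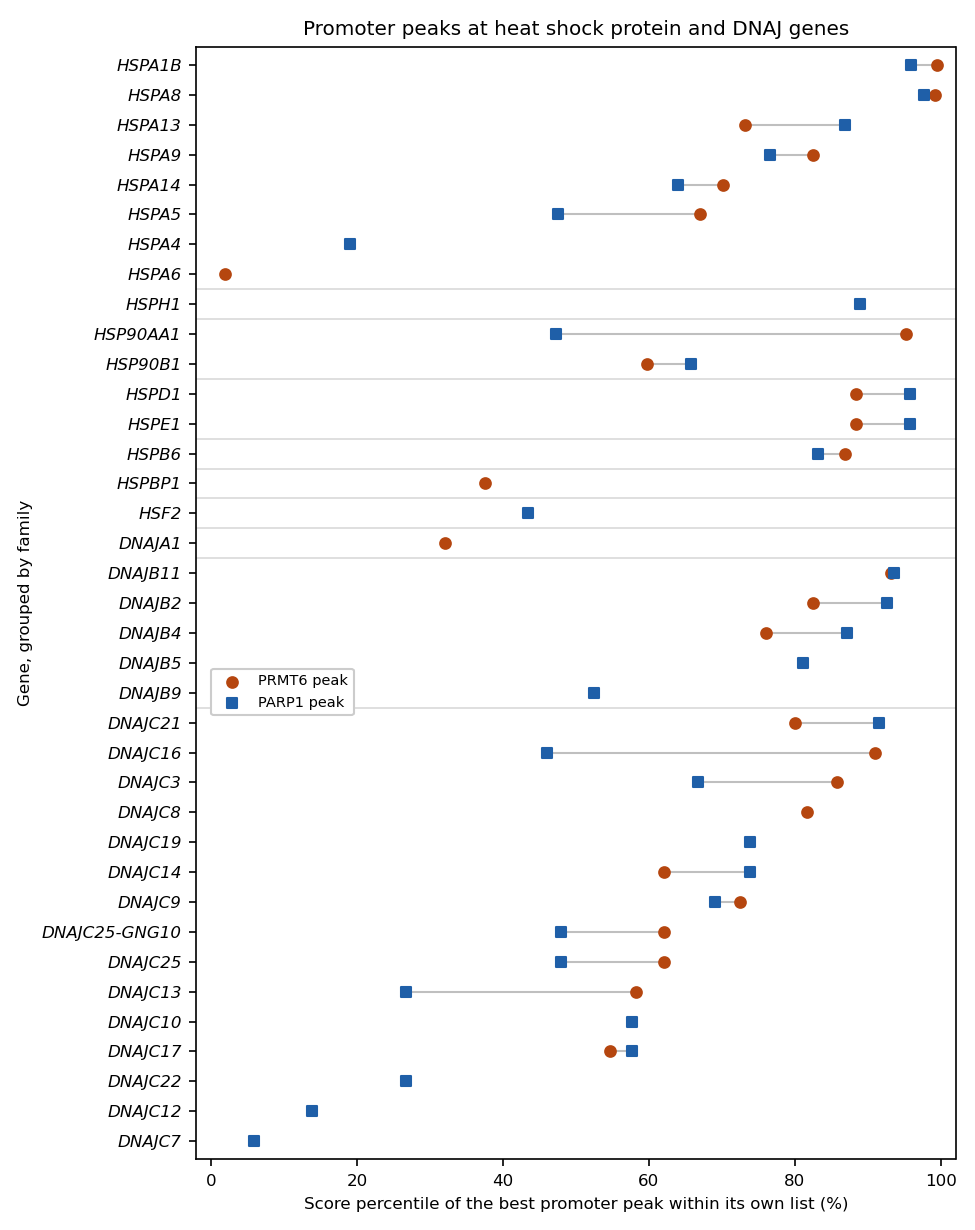
Score percentile within its own list (x axis) of the best promoter peak of each of the 37 members with a peak, grouped by family. Circles are PRMT6 peaks, squares PARP1 peaks, and a grey line joins them where a gene has both. HSPA1B and HSPA8 stand highest, and HSP90AA1 and DNAJC16 show the widest gaps between the lists. The best peaks of DNAJC16 lie nearest to CASP9.

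Among the DNAJB genes, DNAJB11, DNAJB2 and DNAJB4 had peaks of both lists. DNAJB11, a cochaperone of HSPA5 in the ER, ranked 620 (PRMT6, chromosome 3, 186570157 to 186570837) and 750 (PARP1, 186570256 to 186570647). Both peaks lay nearest to TBCCD1, whose 5′ end is 177 bp from that of DNAJB11 on the other strand. DNAJB2, made mostly in neurons, ranked 1588 and 859. DNAJB4 ranked 2171 and 1488 and had a further 2 PARP1 peaks inside the gene. DNAJB5 had a PARP1 peak only (rank 2198). So did DNAJB9, an ER cochaperone (rank 5487), where the peak lay nearest to THAP5. The other 7 DNAJB genes had none at the 5′ end of their record. DNAJA1, a main cytosolic cochaperone, had a PRMT6 peak only (rank 5718, smallest width, nearest to APTX), and DNAJA2, DNAJA3 and DNAJA4 had none.

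The DNAJC proteins are diverse and share only the J domain. DNAJC21, which acts in ribosome assembly, ranked 1786 (PRMT6) and 989 (PARP1). DNAJC3, an ER cochaperone, ranked 1284 and 3853, and DNAJC9, a chaperone of histones, ranked 2479 and 3581. DNAJC16 had a PRMT6 peak of rank 818 and a PARP1 peak of rank 6275, but these lay nearest to CASP9, which begins 1936 bp from DNAJC16. At its own 5′ end it had a weaker PRMT6 peak (rank 7835) and a PARP1 peak with the same score as the first. DNAJC17, DNAJC14, DNAJC25 and its readthrough partner ranked between 3016 and 6014 in both lists. DNAJC13, an endosomal protein, had peaks of rank 3713 and 8457 that did not overlap. PARP1 alone marked DNAJC19, part of the mitochondrial import motor (rank 3016), DNAJC10, DNAJC22, DNAJC12 and DNAJC7, the last at rank 10952 of 11651. PRMT6 alone marked DNAJC8, a splicing-associated protein, with a peak of rank 1656 that lay 2916 bp upstream, at the 5′ end of ATP5IF1.

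At 21 of the 23 members with both kinds of peak, a PRMT6 promoter peak overlapped a PARP1 peak. Among all genes, 2544 had such an overlap and 2637 had both kinds of peak, so overlap was usual at such promoters. HSPA5 and DNAJC13 were the exceptions. The centres of the best peaks lay between 4 and 1797 bp apart, with a median of 46 bp, and within 100 bp at 16 members. By the best peak in the window, the PRMT6 peak stood at the higher percentile at 13 members and the PARP1 peak at 10. The 13 include DNAJC16, whose best PRMT6 peak lies nearest to CASP9. At its own 5′ end the percentiles were 13.7 (PRMT6) and 46.1 (PARP1). In the PRMT6 list the 23 members ran from percentile 54.6 to 99.5 with a median of 80, and in the PARP1 list from 26.7 to 97.7 with a median of 73.9. Members marked by 1 list alone stood lower, with medians of 34.85 (PRMT6, 4 genes) and 48 (PARP1, 10 genes). Of the 4 PRMT6 peaks of that kind 3 had the smallest width, and of the 10 PARP1 peaks 4 did. Among all promoter peaks, 29.3% (PRMT6) and 19.4% (PARP1) had it. Percentiles and widths for all genes marked by 1 list were not computed, so neither pattern can be called particular to the members.

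**Figure D3:**
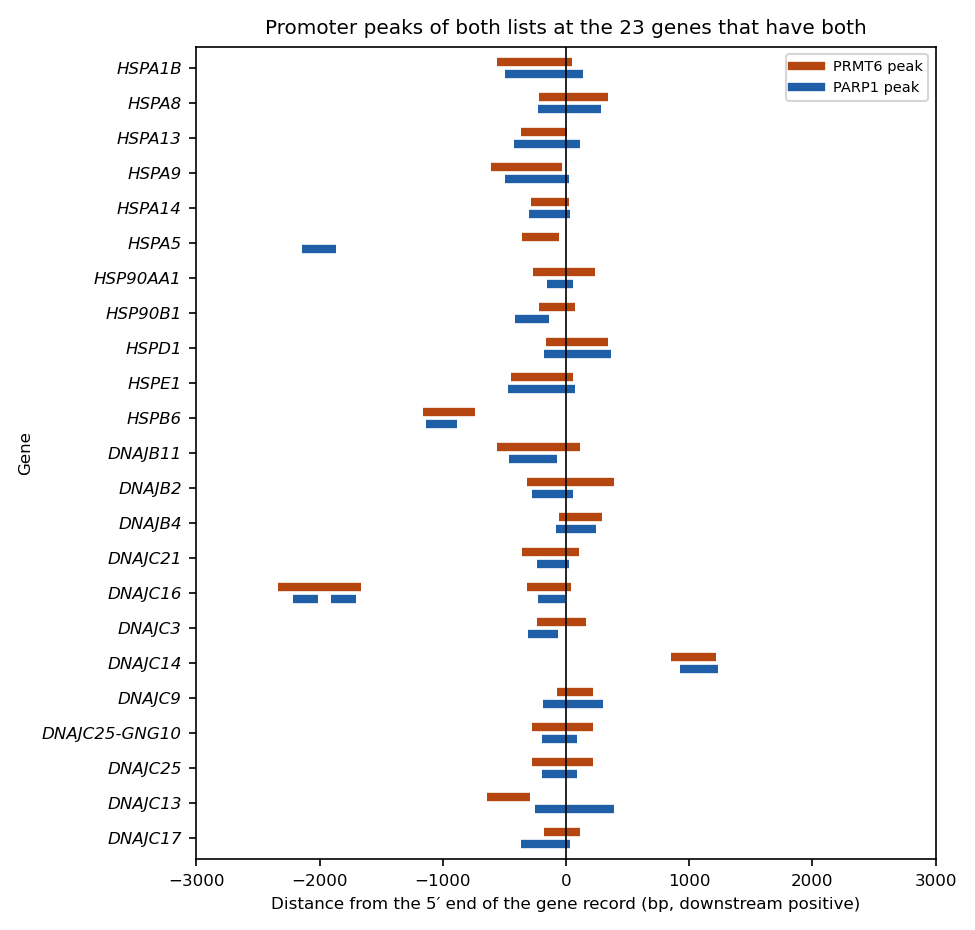
Promoter peaks at the 23 members with peaks of both lists, drawn to scale as bars against the distance from the 5′ end of the gene record (x axis, bp, downstream positive). Most bars of both colours lie at or just upstream of the 5′ end. HSPA5 and DNAJC13 have no overlap between the lists, and the peaks of HSPB6 and DNAJC14 lie away from the 5′ end.

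Member peaks were placed much like promoter peaks in general. The best PRMT6 peak spanned the 5′ end at 17 of 27 members (63%), against 55.2% of all genes with such a peak. The best PARP1 peak did so at 18 of 33 (54.5%), against 44.6%. Member peak centres lay a median of 146 bp (PRMT6) and 156 bp (PARP1) from the 5′ end, against 186 and 182 bp over all genes. The median percentile of the 26 distinct PRMT6 member peaks was 74.5 (70.2 for all PRMT6 promoter peaks), and that of the 33 distinct PARP1 member peaks was 65.7 (60.2 for all). Of the member peaks, 20 of 26 PRMT6 peaks (76.9%) overlapped a PARP1 peak, against 69.2% of all PRMT6 promoter peaks, and 21 of 33 PARP1 peaks (63.6%) overlapped a PRMT6 peak, against 54.9%.

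Peaks of both lists were more frequent where another 5′ end lay close by, among members and among all genes. Another protein-coding 5′ end lay within 1 kb at 19 of the 76 members (25%, against 15.1% of all genes). Both kinds of peak occurred at 9 of these 19 members (47.4%) and at 14 of the 57 others (24.6%). Neighbours on either strand were counted. The 9 include HSPD1 with HSPE1 and DNAJC25 with DNAJC25-GNG10, and each pair has the same peaks counted for both genes. Among all genes the shares were 27.2% with such a neighbour and 10.9% without. At 6 members the best PRMT6 peak lay nearest to the 5′ end of another gene, and at 6 members the best PARP1 peak did. With peaks counted only for the nearest 5′ end, 20 members (26.3%) had peaks of both lists, against 10.7% of all genes.

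In RefSeq promoter windows, which exist for 68 members and 15843 protein-coding genes, the median ratio of observed CpG pairs to those expected from the base composition was 0.83 for members and 0.76 for all genes. A value of at least 0.6 was found in 51 member windows (75%), against 65.6% of all windows. Of these, 20 had peaks of both lists (39.2%), against 19.3% of all windows with such a value. Of the 17 members below it, 2 did, HSPB6 and DNAJC14, against 4.62% of all. Peaks were assigned here by the start of the gene record, while a window belongs to the nearest listed start, which can lie elsewhere. DNAJB1 and HSPA2 thus count as windows without peaks, although the starts of their windows had peaks of both lists. The part of CpG content and of close neighbouring 5′ ends in the member counts was not tested.

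By place and use of the proteins, ER genes had the highest share. Among all genes, 13.4% had peaks of both lists and 22.5% a PARP1 peak. Of 13 ER members, 7 had peaks of both lists (53.8%, 25.1% to 80.8%): HSPA5, HSPA13, HSP90B1, DNAJB11, DNAJC3, DNAJC16 and DNAJC25. A PRMT6 promoter peak overlapped a PARP1 peak at 6 of them, and HSPA5 was the exception. The peaks of DNAJB11 lay nearest to TBCCD1, and the best peaks of DNAJC16 nearest to CASP9. DNAJC10, a reductase that aids disposal of misfolded proteins, and DNAJB9 had a PARP1 peak only. DNAJB12, DNAJB14, DNAJC1 and DNAJC18 had none. Of 10 mitochondrial members, 3 had both (30%, 6.67% to 65.2%), and DNAJC19 had PARP1 only. These were HSPA9 and the pair HSPD1 and HSPE1, which share 1 promoter. Of 11 heat-inducible members, 5 had both (45.5%, 16.7% to 76.6%). These were DNAJB4, HSPA1B (uncertain, as said above), HSP90AA1 (by the start of its record) and again the pair HSPD1 and HSPE1 with its 1 promoter. Of the others, 1 had PRMT6 only (HSPA6), 1 had PARP1 only (HSPH1), and HSPA1A, HSPA4L, HSPB1 and DNAJB1 had none by their record. Of 14 tissue-restricted members, 1 had both by its record (7.14%, 0.181% to 33.9%: HSPB6) and 1 had PARP1 only (DNAJC12). HSPA2, in this class, had both only at a listed start inside its record. DNAJB2, which had both, was not placed in this class, so the low share depends on these choices. These classes overlap in part, and their intervals are wide.

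A gene record gives 1 start per gene, and other listed starts can lie far from it. Those of HSPA12A (108181 bp away) and DNAJC6 (44794 bp) had no promoter peak. At DNAJB4 the start 25764 bp inside the record had the 2 PARP1 peaks named above, the better of rank 2242, and no PRMT6 peak. DNAJB1, HSPA2 and HSP90AA1 had PRMT6 peaks at such starts. DNAJB1, the classical heat-induced partner of HSPA proteins, has a record that begins at 14560391 on chromosome 19, while its listed starts lie 31120 to 42454 bp inside it. At the start at 14529271 the PRMT6 peak (14529180 to 14529756) ranked 81 and the PARP1 peak (14529299 to 14529824) ranked 107, the best PARP1 rank at any member. The nearest 5′ end of another gene record, that of TECR, was 1742 bp from the centre of the PRMT6 peak. Other starts of TECR and of further neighbours were not compared, so the assignment of these peaks to DNAJB1 is uncertain. At the start at 14518397 a second PRMT6 peak ranked 577, with 2 PARP1 peaks within 3 kb, the better of rank 2797. HSPA2, a testis-enriched member, had overlapping peaks of rank 3373 and 4651 just upstream of its listed start, 4836 bp inside the record. At HSP90AA1 the peaks named above lie at the start of the long transcript. The other listed start, 52705 bp downstream, had a PRMT6 peak of rank 3023 (102087222 to 102087509) and no PARP1 promoter peak. With any listed start allowed, an alternative added once the peaks were known, DNAJB1 and HSPA2 join the members with both peaks, which then number 25 of 76 (32.9%), against 14.4% of all genes.

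**Figure D4:**
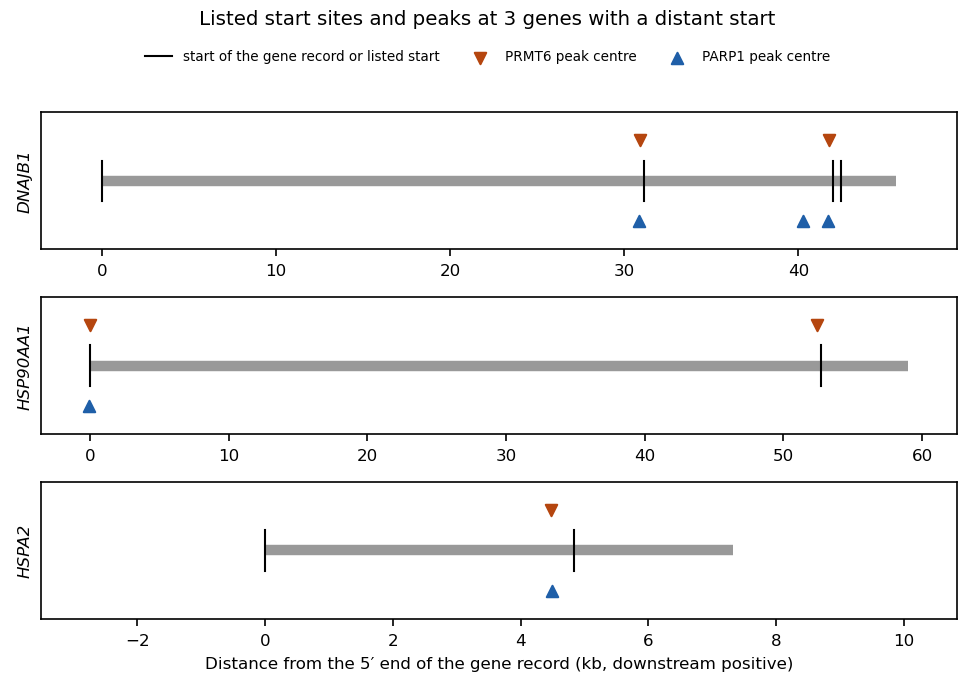
Gene records of DNAJB1, HSP90AA1 and HSPA2 (grey bars) with the record's 5′ end and the listed starts as black ticks, against the distance from the record's 5′ end (x axis, kb). Triangles mark centres of PRMT6 peaks (above) and PARP1 peaks (below). The peaks inside the DNAJB1 record lie at or within 3 kb of the internal starts. The assignment of those at the start at 14529271 to DNAJB1 is uncertain. The internal start of HSP90AA1 has a PRMT6 peak alone.

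Heat shock elements were looked up as 3 units in a row, GAANNTTCNNGAA or TTCNNGAANNTTC, which are each other's reverse complement and cover both strands. They were found in 4 of 68 member windows (5.88%): HSPA8, HSPA6, DNAJA1 and DNAJB6. In all windows the share was 0.372%, or 59 genes. The 2-unit form, which every 3-unit element contains, was found in 14 member windows (20.6%), against 11.4% of all. Further listed starts added HSP90AA1, HSP90AB1 and HSPD1. Only exact matches were sought, and the counts use the listed start nearest to the 5′ end of each record. Imperfect elements and sites outside the windows were not sought, so the other members cannot be said to lack an element. Both elements of HSPA8, which end 218 and 43 bases before its listed start at 123062136 (326 bp inside the record), and the overlapping pair at HSPD1 lay inside the PRMT6 and the PARP1 peak. The other elements lay outside any peak. At HSP90AA1 the element was 90 bp from the PRMT6 peak, at HSPA6 66 bp, and at DNAJA1 113 bp. At DNAJB6 and HSP90AB1 the nearest peak of either list was at least 9929 bp away. Among the 59 genes with an element, 9 had a PRMT6 promoter peak (15.3%) and 16 a PARP1 promoter peak (27.1%), against 19.4% and 23.8% of all genes with a window. These promoter peaks were assigned by the starts of the gene records. The elements under both peaks are printed alone for HSPA8 (chr11:123062354-123062366 and chr11:123062179-123062191) and HSPD1 (chr2:197500073-197500085), since annotated transcripts cover part of their surroundings. The 250 bases before the start of HSPA6 (chr1:161524290-161524539, plus strand) and before the internal start of HSP90AA1 (chr14:102087045-102087294, minus strand) hold a 3-unit element just beside a PRMT6 peak. All are on the strand of the gene, and capitals mark the GAA and TTC units of 2-unit and 3-unit matches. The first pair of units marked at HSPA6 is a separate 2-unit match and lies under its PRMT6 peak. That peak ranked 8745 of 9080, and its reads are uncertain, as said above.
HSPA8, distal: GAAagTTCcaGAA
HSPA8, proximal: TTCtgGAAggTTC
HSPD1: TTCtgGAAagTTC
HSPA6: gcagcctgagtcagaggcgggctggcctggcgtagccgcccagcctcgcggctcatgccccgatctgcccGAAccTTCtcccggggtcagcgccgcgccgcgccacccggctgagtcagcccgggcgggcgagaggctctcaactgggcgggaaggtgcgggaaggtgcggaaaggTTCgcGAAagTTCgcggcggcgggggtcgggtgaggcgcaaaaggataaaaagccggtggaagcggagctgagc
HSP90AA1: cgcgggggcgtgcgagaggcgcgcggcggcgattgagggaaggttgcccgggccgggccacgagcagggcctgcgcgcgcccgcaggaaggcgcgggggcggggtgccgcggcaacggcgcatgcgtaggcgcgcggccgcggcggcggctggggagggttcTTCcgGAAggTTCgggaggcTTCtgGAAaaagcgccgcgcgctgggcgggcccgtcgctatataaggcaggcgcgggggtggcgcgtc

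The ER stress response element, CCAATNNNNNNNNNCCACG on either strand, which contains the letters CCAAT, was looked up after the peaks were known. It was found in 2 member windows, HSPA5 and HSP90B1, and in 18 windows of all (0.114%). Of these 18 genes, 5 had peaks of both lists (27.8%), against 14.2% of all genes with a window. These 5 include HSPA5 and HSP90B1, whose peaks were known before the search. The PARP1 peak of HSPA5 lay 1800 bp from its element. At HSP90B1 both of its elements lay inside the PRMT6 peak and 1 inside the PARP1 peak. At HSPA5 the element overlapped the edge of the PRMT6 peak. The elements at chr12:103930216-103930234 (under both peaks) and chr9:125241391-125241409 are shown with the fixed letters in capitals.
HSP90B1: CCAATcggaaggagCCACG
HSPA5: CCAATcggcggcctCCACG

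Among other chaperone genes, from lists made by role, 18 of 63 had peaks of both lists (28.6%, 17.9% to 41.3%), a share close to that of the members, against 13.4% of all genes. The cytosolic chaperonin had 5 of 9 (CCT3, CCT6A, CCT7, CCT8 and TCP1), further folding factors had 10 of 31, cochaperones of HSP90 had 2 of 17 (11.8%), and the BAG family had 1 of 6 (16.7%, BAG1). The last 2 shares lay near that of all genes. STIP1, which links HSPA proteins to HSP90 proteins, had the best PARP1 rank of these lists, 78, with a PRMT6 rank of 247. P4HB, a disulfide isomerase of the ER, had the best PRMT6 rank, 151, with a PARP1 rank of 559. AHSA1, an activator of HSP90, had a PARP1 peak only (rank 633).

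The 39 members without a promoter peak had their nearest PRMT6 peak between 4333 and 1216072 bp away, with a median of 35350 bp, and their nearest PARP1 peak between 3792 and 488800 bp, with a median of 47232 bp. Just outside the 3 kb window lay DNAJB14 (PARP1, 3792 bp) and HSPA2 (PRMT6, 4333 bp), and just inside it the PRMT6 peak of DNAJC8 (2916 bp). The 5′ end of H2AZ1 lies 3657 bp from that of DNAJB14, and which of them this PARP1 peak lies nearer to was not computed. A peak elsewhere in the gene record was found at 6 of the 39 for PRMT6 and at 5 for PARP1. Both counts include DNAJB1 and HSPA2, whose peaks at or near listed starts are described above. The matching distances and counts for all genes without a promoter peak were not computed, so these values do not set the members apart.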

How the data were processed

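MDA-MB-231 cells were profiled by CUT&Tag with 1 PRMT6 and 1 PARP1 library (the labels also describe a ligation-based ChIP library). The authors deposited 1 peak list per library, with positions and an unlabelled score, read from its range as the −log10 of a p-value or q-value. The submitters' notes name CASAVA 1.4, Bowtie 0.12.8, MACS, MACS2 and hg19. The positions fit GRCh38 instead: 30.1% of PRMT6 and 29.5% of PARP1 peaks lay within 1 kb of a 5′ end there, against 4.04% and 3.94% in GRCh37. Peak thresholds, duplicate handling and any control library are not given in the sources used here.

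RefSeq records (GRCh38.p14) gave 20056 protein-coding genes. Strand came from the RefSeq promoter table (15843 genes) or by name from GENCODE (3876 genes, 8 of them members), and 337 genes without one were left out. The deposited starts were read as counting from 0, since the smallest widths are then 200 and 288 bp, and positions are printed counting from 1. Of the RefSeq promoter windows, only those without an annotated GENCODE exon are shown whole. Overlap meant at least 1 shared bp. Python 3.11.15, numpy 2.4.6, pandas 2.3.3 and scipy 1.17.1 were used. Promoter assignment was tested on simulated data. The members and lists were chosen with earlier results of these data known. Values are given for members with peaks of both lists whose better percentile was at least 50, for at least 1 member of each family, HSF1, HSF2, the heat-inducible genes, HSPA5, HSPA8, HSP90AB1 and the 3 best per list of those marked by 1 list. Values for HSPA2, HSPA4, HSPA12A, DNAJB9, DNAJB14, DNAJC6, DNAJC7 and the other chaperones were chosen after they were seen. The window, score limit, peak width, neighbour rule, list length, overlap and member rule were varied.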

Additional observations from a re-analysis of the deposited data

How the results depend on the processing

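All 28 alternative values of the member counts stayed within 1.5 times the reported ones, and in all 28 the member share was above the share of all genes. Counts ran from 22 to 29 members for PRMT6, 22 to 35 for PARP1 and 17 to 25 for both lists. The lowest count for both lists, 17, came from the upper 50% of each list by score and from a reciprocal overlap of at least 50%. The use of any listed start, which gave the highest counts, was added once the peaks were known. No paired analysis was possible because there is only 1 library for each antibody, and for that reason none could be left out. Weak peaks near the score limit depend on a depth that the lists do not show.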
